A study of Mus musculus with 8 samples.

Results

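The tumour suppressor p53 and 9 genes that it is known to activate directly were followed in mouse Hepa-1c1c7 (Hepa-1) hepatoma cells exposed to hexavalent chromium, Cr(VI). The 10 genes, Trp53, Cdkn1a, Mdm2, Ccng1, Bax, Bbc3, Btg2, Phlda3, Gdf15 and Trp53inp1, were chosen by name as p53 and well-known direct targets, and all 10 were found by Entrez GeneID among the 23403 genes of the count table. RNA-seq covered 2 libraries of cells given 25 µM CrK2O4 for 90 minutes and 2 libraries of control cells (which of the regimens they were grown for is not in their labels). FAIRE-seq, which sequences the DNA left free of protein crosslinks and so marks open chromatin, covered 1 library of cells given 25 µM for 90 minutes, 1 library of cells grown with 0.5 µM for 20 passages, and 1 control library for each. All of them are 1 established line kept in α-MEM with fetal bovine serum, so they stand for cultured hepatoma cells and not for liver.

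p53 is a transcription factor that is kept low by the ubiquitin ligase Mdm2 and is stabilised when kinases of the DNA damage response modify it. It then binds as a tetramer to a pair of adjoining half-sites near its target genes, among them genes that stop the cell cycle, genes that start apoptosis, and Mdm2 itself, which closes a negative feedback loop. In liver cells p53 is best known as a barrier to tumour growth, and reduction of Cr(VI) inside cells is known to damage DNA.

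Library totals were 32877791 and 32319676 counts in treated replicates 1 and 2, and 33303645 and 37696116 in control replicates 1 and 2. Before any gene is described, the treated pair has to be set beside the control pair, because the treated libraries stood far apart. Their labels give the same exposure but do not say whether they were treated and harvested alike, and a swap of labels was not tested, so it is not known which of them stands for the exposure. Across the 13619 genes that passed the filter on low counts, the SD of the difference in log2 CPM (TMM-normalised counts scaled to a common library size, with a prior count of 2) was 0.65 between the 2 treated libraries and 0.21 between the 2 controls. More than 2-fold differences separated the treated pair at 1404 genes and the control pair at 83. The 10 genes with most counts took 5.61% of treated replicate 2, and 3.95% to 4.13% of the other libraries. Nothing in the labels says that the replicates are separate cultures, so the p-values below measure only the spread between these samples. Levels and group medians are therefore given for the 2 treated libraries separately beside the fit to both. In such bulk samples, fewer expressing cells and less RNA per cell cannot be told apart.

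Markers were compared with the label of the line. Krt8, a keratin of hepatic epithelium, was at 1036, 1329, 943 and 1001 CPM in treated replicates 1 and 2 and control replicates 1 and 2. The fetal liver protein gene Afp was at 129, 178, 149 and 151 CPM in the same order. Both were present in every library, whereas the liver genes Apoa1, Hnf4a and Serpina1a of the same marker list averaged under 1 CPM. Summed over the 10 hepatoma and liver markers, the level was 7375 and 8677 CPM in treated and 4171 and 4308 CPM in control libraries, with Trf the most abundant in controls. Of the 9 tested, Alb and Ttr differed (adjusted p = 0.0317 and 0.0332, edgeR's quasi-likelihood test with Benjamini-Hochberg adjustment). Alb, which encodes albumin, stood at 3667 and 3550 CPM in treated and 905 and 948 CPM in control libraries.

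Markers of other cell types were low for blood cells and endothelium, but not for fibroblasts or bile duct. The 4 blood cell markers summed to 11.6, 32.6, 15.2 and 16.1 CPM, led by Cd68, while Ptprc, the pan-leukocyte marker, stayed under 0.1 CPM in every library. The 3 endothelial markers summed to 1.92, 2.35, 0.633 and 0.691 CPM, led by Pecam1, and the defining marker Cdh5 had 0 counts in all 4 libraries. The 5 fibroblast and stellate cell markers summed to 1285, 1415, 695 and 706 CPM, most of it from Dcn and Col1a1, with Col1a2 under 1 CPM. The 3 bile duct markers summed to 799.9, 1045, 966 and 999 CPM, led by Krt7. Pecam1 and Dcn differed between treated and control libraries (adjusted p = 0.0438 and 0.0362, edgeR). Neither they nor Alb and Ttr passed without control replicate 1 (0.34, 0.44, 0.243 and 0.216) or control replicate 2 (0.342, 0.416, 0.214 and 0.226). Their log2 fold changes moved little in these fits, from 2.03 to 2.02 and 2.01 for Pecam1, from 1.16 to 1.12 and 1.15 for Dcn, from 1.96 to 1.91 and 1.98 for Alb, and from 2.46 to 2.47 and 2.42 for Ttr. These 4 markers were alike in both treated libraries, and others were not. Cd68, a macrophage marker, was at 5.08 CPM in treated replicate 1, 22.1 CPM in treated replicate 2, and 7.77 and 8.29 CPM in the controls, a difference between the treated libraries higher than for 99.4% of tested genes. Higher levels in treated replicate 2 were also found for Hba-a1 (3.81 and 7.15 CPM), Apoa2 (2.63 and 4.42 CPM), Trf (1432 and 2076 CPM) and Col1a1 (234 and 364 CPM), and a lower level for Pdgfrb (80.4 and 41.7 CPM). The part of any of these markers in the results for p53 targets was not tested.

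The DNA that p53 is known to recognise was looked up in the sequence around the starts of the genes. A p53 site was taken as 2 joined p53 half-sites of 10 bp with the C and G of both cores fixed and at most 2 mismatches elsewhere. The pattern equals its own reverse complement, so a search of one strand covers both. Within 2.5 kb of the first annotated start, 4 of the 10 genes held such a match (Bax, Ccng1, Cdkn1a and Gdf15), beside 4.98% of the 23281 annotated genes of the count table. At most 1 mismatch was needed at 3 of the 4 (0.816% of all genes), and Bax needed 2. The matches are shown 5′ to 3′ on the strand of the gene, from RefSeq GRCm38.p6 (mm10), with the 4 central bases of each half-site in capitals and the distance of the centre from the first start below 0 where it lies upstream.
Cdkn1a, chr17:29090928-29090947, plus strand, −41.5 bp from the first start, intergenic: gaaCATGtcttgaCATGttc
Ccng1, chr11:40755462-40755481, minus strand, −162.5 bp from the first start, intergenic: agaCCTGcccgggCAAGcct
Ccng1, chr11:40754936-40754955, minus strand, 363.5 bp from the first start, intron: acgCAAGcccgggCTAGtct
Gdf15, chr8:70631966-70631985, minus strand, 494.5 bp from the first start, exon: tgaCTTGcctgaaCTTGcct
Bax, chr7:45466574-45466593, minus strand, 319.5 bp from the first start, intron: gggCAGGcccgggCTTGtcg
A match is a description of these letters and not a bound site, and the other 6 genes lack only these letters in this window.

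Taken as a list, the 10 genes were higher in treated replicate 2 than in treated replicate 1 without exception, where 49.4% of all tested genes were. In treated replicate 2 all 10 lay above both controls (45.7% of all tested genes did), although Bax did not when only library size was used for scaling. In treated replicate 1 only 6 of 10 did so (46.7% of all tested genes), namely Trp53, Cdkn1a, Bbc3, Btg2, Phlda3 and Trp53inp1, and the other 4 lay below both controls. These same 6 lay above both controls in both treated libraries, where 32.2% of all tested genes did. The difference between the treated libraries exceeded 2-fold upward in replicate 2 for 5 of 10 genes (Cdkn1a, Mdm2, Bbc3, Btg2 and Gdf15) and for 4.81% of all tested genes. In log2 CPM, the median gene of the list was 0.21 above the control mean in treated replicate 1 and 1.33 above it in treated replicate 2, beside 0.0035 and −0.036 over all tested genes.

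**Figure D1:**
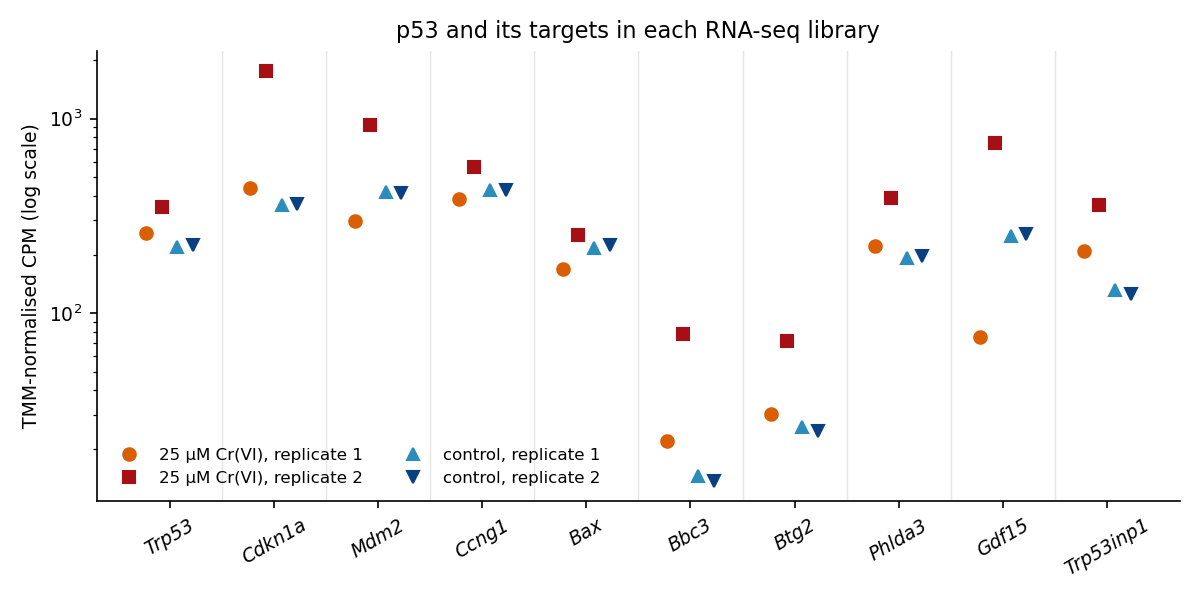
TMM-normalised CPM of p53 and its 9 targets on a log axis, 1 point for each RNA-seq library. The 2 controls nearly coincide for every gene, treated replicate 2 is the highest point of all 10 (for Bax not with library size alone), and treated replicate 1 lies below the controls for Mdm2, Ccng1, Bax and Gdf15.

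Tested over the 4 libraries, none of the 10 genes passed: 0 of 10 had an adjusted p under 0.05 with edgeR's quasi-likelihood test, where 4.63% of the tested genes did. At an unadjusted p under 0.05 there were 2 of 10, Bbc3 and Trp53inp1, beside 30.7% of all tested genes, so the list was not above the background there. DESeq2 called 3 of 10, Bbc3, Btg2 and Trp53inp1 (adjusted p = 0.00114, 0.0453 and 0.00117), where it called 14.2% of its tested genes. With the replicate number as a block, 4 of 10 passed (Btg2, Cdkn1a, Bbc3 and Trp53inp1), beside 21.8% of all tested genes. The replicate numbers are not taken to pair the samples, however. The median log2 fold change of the list was 0.68, beside −0.0047 over all tested genes, and went to 1.34 without treated replicate 1 and 0.21 without treated replicate 2. The outcome rested on single libraries. Without treated replicate 1 all 10 passed, as did 77.6% of all genes, and without treated replicate 2 all 10 passed too, as did 67.2%; in these fits the lone treated library is assumed to vary like the controls. Without control replicate 1 or control replicate 2 Bbc3 alone passed (adjusted p = 0.0181 and 0.0312, edgeR), as did 2.07% and 2.02% of all genes.

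**Figure D2:**
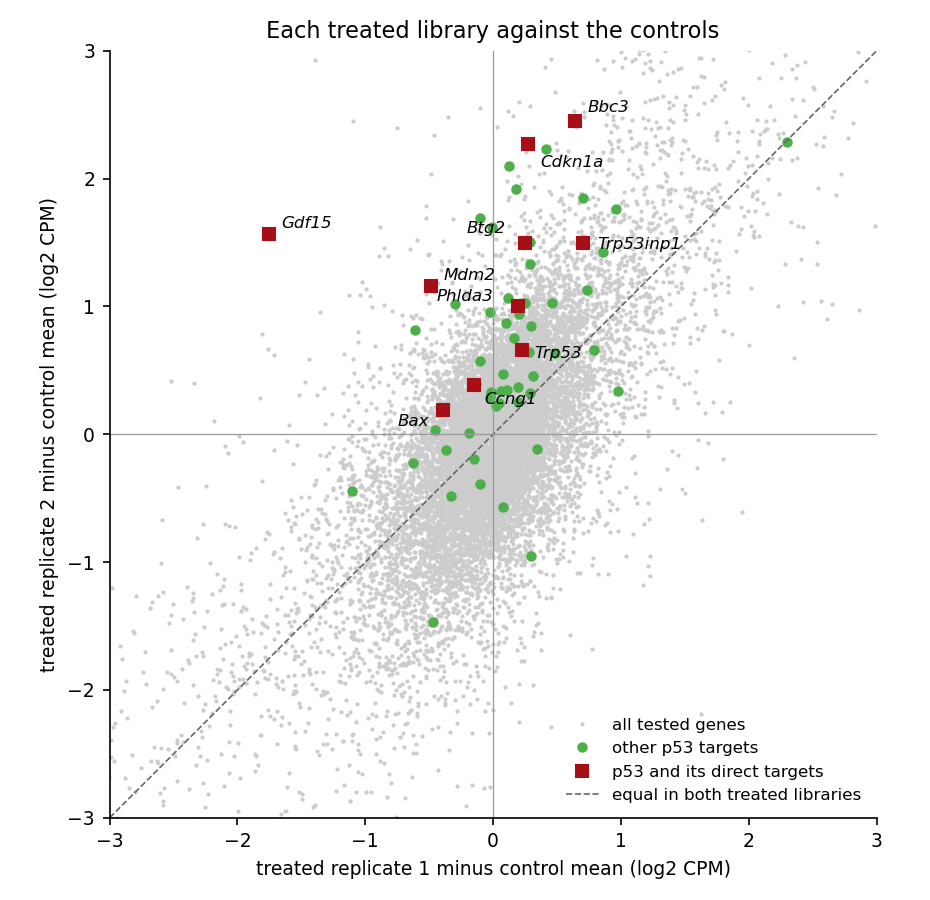
Each point is a tested gene, with its log2 CPM in treated replicate 1 minus the control mean across and that in treated replicate 2 minus the control mean upward; axes end at 3 and genes beyond are not shown. p53 and its 9 targets (squares) all lie above the dashed line of equal values, Gdf15 farthest from it.

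Of the genes at the centre of the pathway, Trp53 itself encodes p53. Trp53 was at 259 CPM in treated replicate 1, 350 CPM in treated replicate 2, and 219 and 224 CPM in the controls. Both treated libraries lay above both controls, which were within a few CPM of each other. Treated cells averaged 304 ± 64.4 CPM and control cells 222 ± 3.18 CPM (SD, n = 2 each). Its log2 fold change was 0.46 with an SE of 0.18 (adjusted p = 0.183, edgeR), 0.22 without treated replicate 2 and 0.67 without treated replicate 1. Trp53 has a pseudogene in the annotation, Trp53-ps, and whether reads were shared with it was not tested, so the count is uncertain. Upstream of Trp53 and read from the other strand lies Wrap53, at 16.6 and 26.4 CPM in treated and 14.9 and 16.0 CPM in control libraries.

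Mdm2, the ubiquitin ligase that targets p53 for degradation, was at 298 CPM in treated replicate 1, 931 CPM in treated replicate 2, and 421 and 413 CPM in the controls. The controls lay between the treated libraries, so the groups overlapped. Relative to the control mean, Mdm2 was 0.715 times as high in treated replicate 1 and 2.23 times as high in treated replicate 2. The fitted log2 fold change was 0.56 with an SE of 0.55 (adjusted p = 0.531, edgeR), and it changed sign without treated replicate 2 (−0.49) and was 1.17 without treated replicate 1. The Mdm2 levels rest on 10091 and 26953 counts in the treated and 14650 and 16147 counts in the control libraries.

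Among the genes that arrest the cell cycle, Cdkn1a encodes p21, an inhibitor of cyclin-dependent kinases and the best known p53 target. It stood at 438 CPM in treated replicate 1, 1751 CPM in treated replicate 2, and 361 and 364 CPM in the controls. Both treated libraries were above both controls, but treated replicate 1 by a factor of 1.21 and treated replicate 2 by a factor of 4.83. Treated cells averaged 1095 ± 928 CPM and controls 362 ± 2.51 CPM (SD, n = 2 each). A log2 fold change of 1.59 was fitted, which had a 95% interval from −0.22 to 3.41 (adjusted p = 0.198, edgeR). It was 0.27 without treated replicate 2 and 2.28 without treated replicate 1. The difference between the treated libraries was higher than for 99.2% of tested genes. The match shown above for Cdkn1a lies just before its first annotated start.

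Ccng1, which encodes cyclin G1, a partner of protein phosphatase 2A in the control of Mdm2, was at 388 CPM in treated replicate 1, 562 CPM in treated replicate 2, and 428 and 431 CPM in the controls. It holds the pair of matches shown above and yet was among the flattest genes of the list. Treated replicate 1 lay below both controls and treated replicate 2 above them. In the fit its log2 fold change was 0.14 with an SE of 0.22 (adjusted p = 0.683, edgeR), −0.15 without treated replicate 2 and 0.40 without treated replicate 1.

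Btg2, an antiproliferative cofactor of the mRNA deadenylase complex and an early response gene, was at 30.1 CPM in treated replicate 1, 71.5 CPM in treated replicate 2, and 25.9 and 24.8 CPM in the controls. Treated replicate 1 was only slightly above the controls and treated replicate 2 was 2.82 times the control mean. Over all libraries the log2 fold change was 1.00 with an SE of 0.43 (adjusted p = 0.202, edgeR), 0.25 without treated replicate 2 and 1.51 without treated replicate 1. DESeq2 called it and edgeR did not.

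The genes that act in cell death or survival went different ways in treated replicate 1. Bax, which permeabilises the outer mitochondrial membrane, was at 168 CPM in treated replicate 1, 252 CPM in treated replicate 2, and 217 and 223 CPM in the controls. The controls lay between the treated libraries, and Bax was the closest to the controls of all 10 genes in treated replicate 2. Its log2 fold change was −0.07 with an SE of 0.22 (adjusted p = 0.856, edgeR), 0.20 without treated replicate 1 and −0.39 without treated replicate 2.

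Bbc3 encodes PUMA, a BH3-only protein that frees Bax from its inhibitors. Its level was 22.1 CPM in treated replicate 1, 77.8 CPM in treated replicate 2, and 14.6 and 13.8 CPM in the controls. Both treated libraries were above both controls, by factors of 1.56 and 5.49, the latter the largest ratio to the controls among the 10 genes in treated replicate 2. Treated cells averaged 49.9 ± 39.4 CPM and controls 14.2 ± 0.562 CPM (SD, n = 2 each). The log2 fold change of 1.82 had a 95% interval from 0.15 to 3.49 (unadjusted p = 0.0386, adjusted p = 0.145, edgeR's quasi-likelihood test). It was 0.64 without treated replicate 2 and 2.47 without treated replicate 1, and 1.83 and 1.75 without control replicates 1 and 2.

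Phlda3, which competes with Akt for membrane lipids and so represses survival signalling, was at 221 CPM in treated replicate 1, 389 CPM in treated replicate 2, and 191 and 196 CPM in the controls. Both treated libraries were above both controls, the first narrowly. For Phlda3 the log2 fold change was 0.66 with an SE of 0.29 (adjusted p = 0.213, edgeR), 0.19 without treated replicate 2 and 1.02 without treated replicate 1. Trp53inp1, a stress protein that promotes p53 activity and autophagy, was at 208 CPM in treated replicate 1, 361 CPM in treated replicate 2, and 131 and 125 CPM in the controls. Of the 10 genes it was the one with the largest ratio to the controls in treated replicate 1, at 1.63, and it had the smallest p of the list. The log2 fold change was 1.15 with a 95% interval from 0.38 to 1.93 (unadjusted p = 0.0135, adjusted p = 0.0929, edgeR), 0.70 without treated replicate 2 and 1.51 without treated replicate 1.

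Gdf15, a secreted cytokine of the TGF-β family that many stresses induce, set the treated libraries apart most. It was at 75.0 CPM in treated replicate 1, 751 CPM in treated replicate 2, and 250.5 and 256 CPM in the controls, from 2536, 21764, 8708 and 10027 counts. Treated replicate 1 was thus 0.296 times the control mean and treated replicate 2 was 2.96 times it, on opposite sides of controls that nearly coincide. Treated replicate 2 was 10 times as high as treated replicate 1, and that difference was higher than for 99.96% of tested genes. The log2 fold change of 0.70 had an SE of 1.03 (adjusted p = 0.672, edgeR), and went to −1.76 without treated replicate 2 and 1.58 without treated replicate 1. A mean of the 2 treated libraries describes neither of them for this gene.

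**Figure D3:**
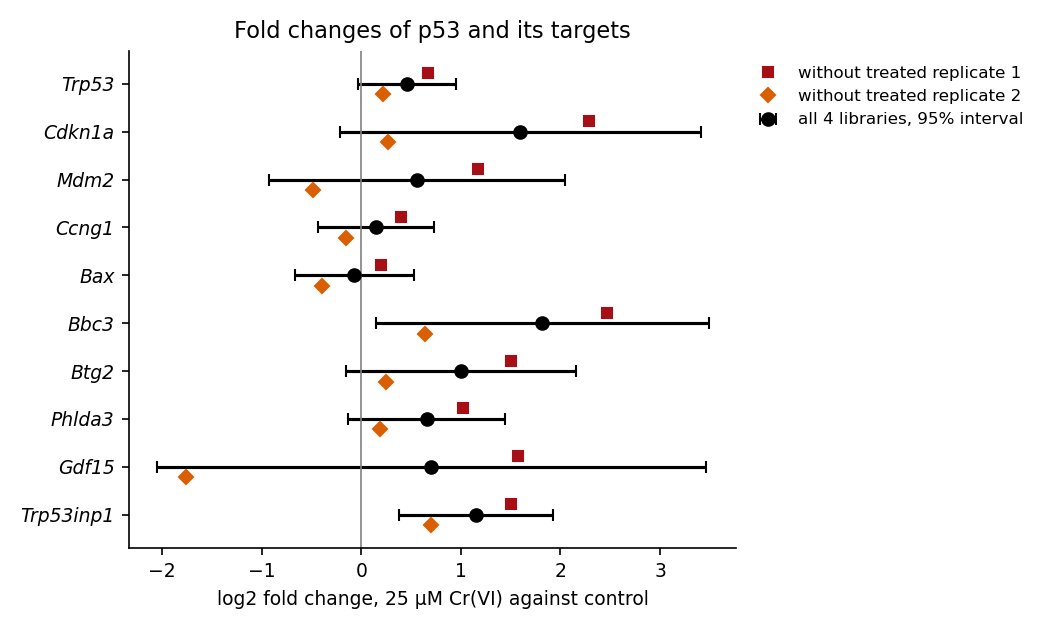
Log2 fold change of each gene at 25 µM Cr(VI) against control from edgeR, as a black point with its 95% interval over all 4 libraries, with squares for the fit without treated replicate 1 and diamonds for the fit without treated replicate 2. Gdf15 runs from −1.76 to 1.58, and Mdm2, Ccng1 and Bax also have marks on both sides of 0.

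Levels of different genes were compared per length, as CPM per kb of annotated exons merged over all RefSeq transcripts. In the controls the order from the top was Bax (235 and 242 CPM per kb), Cdkn1a (177 and 179), Gdf15 (134 and 137), Phlda3 (130.2 and 134), Ccng1 (122 and 123), Trp53 (95.7 and 97.7), Mdm2 (56.8 and 55.7), Trp53inp1 (24.1 and 23.0), Btg2 (8.40 and 8.04) and Bbc3 (4.52 and 4.27). The controls of neighbouring genes did not overlap, but those of Gdf15 and Phlda3 lay closer together than either pair's own spread. In treated replicate 2 the order began with Cdkn1a at 860.0 CPM per kb and Gdf15 at 403 CPM per kb, ahead of Bax at 273 CPM per kb. In treated replicate 1 Cdkn1a was also first, at 215 CPM per kb, and Gdf15 was at 40.2 CPM per kb, close to Mdm2 at 40.2 and Trp53inp1 at 38.3 CPM per kb. Bbc3 and Btg2 were the lowest in all 4 libraries.

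The genes most like Cdkn1a and Trp53 were looked for among 12080 tested genes with a mean of at least 1 CPM, by the root mean square difference in centred log2 CPM over the 4 libraries. The 5 closest to Cdkn1a were Cldn4 (0.04), Sesn2 (0.07), Zfp296 (0.08), Plk3 (0.08) and Vegfa (0.09). Sesn2 and Plk3 also stand on the list of other p53 targets. Vegfa, the angiogenic growth factor, was at 60.1 CPM in treated replicate 1, 207 CPM in treated replicate 2, and 42.8 and 42.5 CPM in the controls. Within the 10 genes, Bbc3 was nearest to Cdkn1a, at 0.16, and Bax farthest, at 0.85. For Trp53 the 5 closest were Cpne8 (0.0058), Rps15a-ps6 (0.0084), Cdca4 (0.011), Zfp488 (0.013) and Cactin (0.013), and within the 10 genes Phlda3 (0.16) and Ccng1 (0.16).

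A longer list of 52 other p53 targets was described in the same way, and 51 of them were tested, since Zfp365 did not pass the filter. The list was chosen with earlier results of these data known, so its counts are no independent check of the pattern. With edgeR 1 of 51 passed and was higher and 0 were lower, where 4.63% of all tested genes passed. At an unadjusted p under 0.05 there were 11 of 51, below the 30.7% of all tested genes, and DESeq2 called 10, beside 14.2% of its tested genes. The median log2 fold change was 0.38, and went to 0.58 without treated replicate 1 and 0.11 without treated replicate 2. In log2 CPM, the median target was 0.11 above the control mean in treated replicate 1 and 0.57 above it in treated replicate 2. Treated replicate 2 exceeded treated replicate 1 at 41 of 51 (49.4% of all tested genes), and at 36 of 51 when only library size was used. Treated replicate 2 lay above both controls at 40 of 51 and treated replicate 1 at 32 of 51, beside 45.7% and 46.7% of all tested genes. More than 2-fold higher levels in treated replicate 2 than in treated replicate 1 were found at 10 of 51 (4.81% of all tested genes), and the reverse at 2 of 51 (749 of the 13619 tested genes), Sesn1 and Pank1, which were singled out after their values were seen. The treated libraries thus differed in the same direction as for the 10 genes in most but not all of these targets.

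Ptp4a3, a phosphatase that can arrest or promote cell division, was the target that passed. It rose from 11.5 and 13.4 CPM in the controls to 61.4 CPM in treated replicate 1 and 60.8 CPM in treated replicate 2. The treated libraries were alike here, in contrast to the 10 genes. The log2 fold change was 2.29 with an SE of 0.14 (adjusted p = 0.0282, edgeR), and it ran from 2.16 to 2.38 with 1 library left out. Sesn2, a stress sensor that restrains mTORC1, was at 50.0 CPM in treated replicate 1, 177 CPM in treated replicate 2, and 36.9 and 38.01 CPM in the controls (log2 fold change 1.60, adjusted p = 0.172, edgeR). Its log2 fold change was 0.41 without treated replicate 2, 1.55 and 1.59 without control replicates 1 and 2, and 2.25 without treated replicate 1. Plk3, a stress-responsive kinase, was at 23.4 CPM in treated replicate 1, 91.9 CPM in treated replicate 2, and 21.1 and 21.8 CPM in the controls (log2 fold change 1.43, adjusted p = 0.225, edgeR). For Plk3 it was 0.12 without treated replicate 2, 1.38 and 1.43 without control replicates 1 and 2, and 2.11 without treated replicate 1. DESeq2 called Sesn2 and Plk3 (adjusted p = 0.00419 and 0.0216).

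The targets were also counted by role, with no test between the groups. All 8 cell cycle arrest genes lay above both controls in both treated libraries, under each scaling tried, where 32.2% of all tested genes did with TMM. Their median log2 fold change was 1.04, while their median log2 CPM lay 0.28 above the control mean in treated replicate 1 and 1.38 above it in treated replicate 2. With edgeR 0 of 8 passed, and 4 of 8 had an unadjusted p under 0.05, beside 30.7% of all tested genes. Examples chosen after their values were seen are Plk2, at 523 and 910.1 CPM in treated and 271 and 266 CPM in control libraries, and Gtse1, at 135 and 300.2 CPM in treated and 82.3 and 84.2 CPM in control libraries. All 10 apoptosis genes were higher in treated replicate 2 than in treated replicate 1 under each scaling, and 4 of 10 lay above both controls in treated replicate 1, near the 46.7% of all tested genes. The median log2 fold change of these 10 was 0.42, which describes neither library, as the medians against the control mean were 0.0079 in treated replicate 1 and 0.76 in treated replicate 2. With edgeR 0 of 10 passed, also at an unadjusted p under 0.05. Pmaip1, which encodes the BH3-only protein NOXA and was chosen after its values were seen, was at 143 CPM in treated replicate 1, level with its controls at 146 and 140.1 CPM, and at 441 CPM in treated replicate 2. The 7 genes of DNA repair and nucleotide supply had a median log2 fold change of −0.19, but medians of opposite sign in treated replicate 1 (0.077) and treated replicate 2 (−0.12). For the 14 of metabolism, redox and autophagy the median was 0.20, with 0.075 and 0.34 in the same order, and 0 passed the adjusted threshold in either group.

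**Figure D4:**
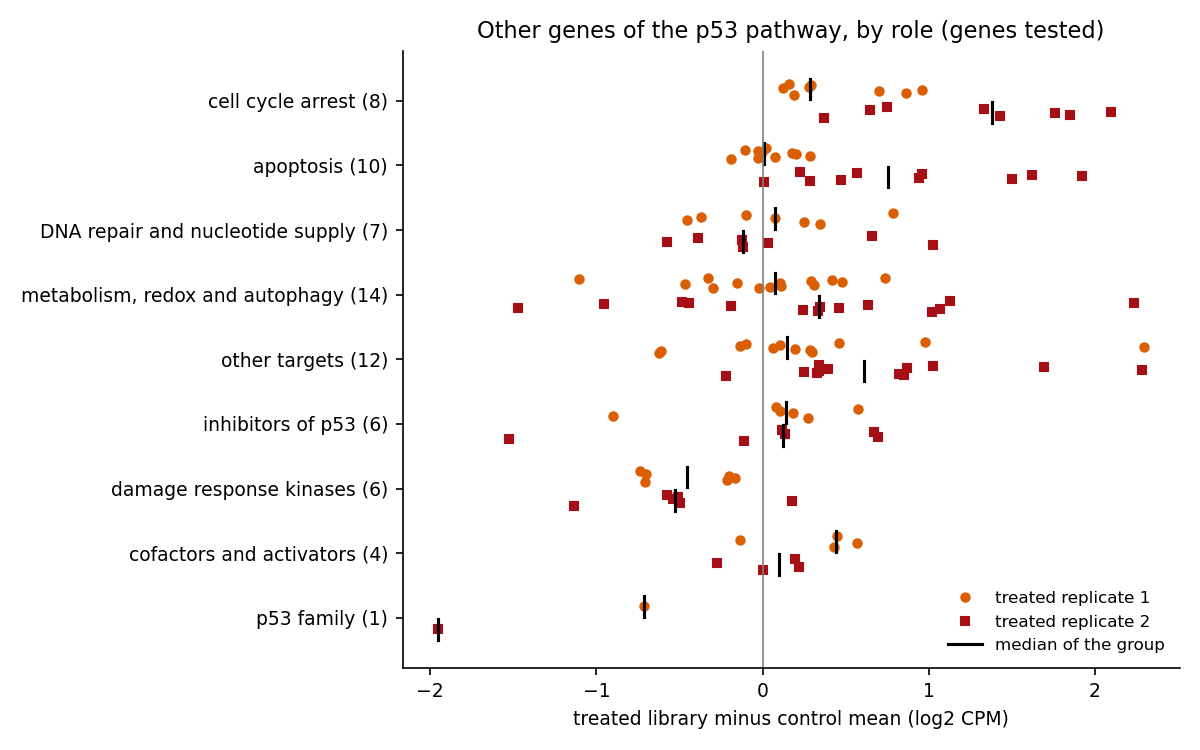
Log2 CPM of each tested gene of the wider p53 pathway in treated replicate 1 (circles) and treated replicate 2 (squares) minus the control mean, grouped by role, with black bars at the group medians and the number of genes in brackets. All 8 cell cycle arrest genes lie right of 0 in both libraries, and the 6 damage response kinases lie left of 0 in treated replicate 1.

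Upstream of p53, 17 of 19 regulators were tested, since Cdkn2a and Trp73 did not pass the filter. Cdkn2a, whose alternative product ARF restrains Mdm2, had 0 counts in all 4 libraries, and a count of 0 allows up to 3 counts, or 0.0767 to 0.104 CPM depending on the library. With edgeR 0 of 17 passed, beside 4.63% of all tested genes, and 4 of 17 had an unadjusted p under 0.05, below the 30.7% of all tested genes. DESeq2 called 3, beside 14.2% of its tested genes, and the median log2 fold change was 0.014, with medians against the control mean of −0.13 in treated replicate 1 and −0.11 in treated replicate 2. Mdm4, which binds p53 and blocks its activity, was at 63.7 CPM in treated replicate 1, 41.1 CPM in treated replicate 2, and 125 and 113 CPM in the controls. Both treated libraries lay below both controls, which sets Mdm4 apart in values from its relative Mdm2. Its log2 fold change was −1.18 with an SE of 0.24 (adjusted p = 0.0692, edgeR). It was −1.13 and −1.27 without control replicates 1 and 2, −1.52 without treated replicate 1 and −0.90 without treated replicate 2. Of the 6 inhibitors of p53, 5 had a log2 fold change above 0 (49.6% of all tested genes did), so Mdm4 does not stand for them. The median of the 6 was 0.11. Treated replicate 2 lay below both controls at 2 of the 6 with TMM and at 4 with library size only.

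Of the 6 kinases of the damage response, 6 lay below both controls in treated replicate 1 and 5 in treated replicate 2, so 5 were below in both, where 34.0% of all tested genes were. Their median log2 fold change was −0.49, with −0.46 in treated replicate 1 and −0.53 in treated replicate 2. Atm, the kinase that senses DNA double-strand breaks, was at 15.8 CPM in treated replicate 1, 11.7 CPM in treated replicate 2, and 26.3 and 25.2 CPM in the controls (log2 fold change −0.91, adjusted p = 0.075, edgeR). The fold change was −0.71 without treated replicate 2 and −1.13 without treated replicate 1, and −0.90 and −0.96 without control replicates 1 and 2. DESeq2 called Mdm4 and Atm, which were lower, and Sirt1, which was higher (adjusted p = 0.000243, 0.00868 and 0.0431). Sirt1, an inhibitor of p53 named because DESeq2 called it, was at 40.2 and 42.9 CPM in treated and 26.8 and 27.1 CPM in control libraries. Trp63, the p53 relative of stratified epithelia, was low (log2 fold change −1.22, adjusted p = 0.166, edgeR). It stood at 2.28 and 0.932 CPM in treated and 3.60 and 3.96 CPM in control libraries. Its fold change was −0.74 without treated replicate 2, −2.01 without treated replicate 1, and −1.32 and −1.17 without control replicates 1 and 2.

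Chromatin at the 10 genes was described from the deposited lists of FAIRE peaks that opened with treatment, 2945 peaks at 25 µM for 90 minutes and 860 at 0.5 µM for 20 passages. For each exposure the paper counts more opened peaks than these lists hold, and the reason is not known. The counts of genes below rest on the lists as they are. With 1 library for each condition these lists have no replicate check, and the peaks carry a score but no read counts. A peak of the 25 µM list overlapped the gene or the 10 kb on either side of it at 2 of 10 genes, Btg2 and Gdf15, beside 9.24% of all annotated genes. For the 0.5 µM list this was 0 of 10, beside 2.97% of all annotated genes. The 2 peaks, and the peak nearest to Cdkn1a, are shown because they are the open regions closest to the genes that differed most between the treated libraries or lie within the window. All are given on the plus strand of mm10, 5′ to 3′, with a p53 half-site in capitals.
Gdf15, chr8:70629112-70629274, intergenic, score 52.4: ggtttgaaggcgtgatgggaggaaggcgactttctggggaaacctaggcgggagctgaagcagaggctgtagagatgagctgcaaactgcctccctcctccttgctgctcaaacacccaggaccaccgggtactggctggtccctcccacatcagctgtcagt
Btg2, chr1:134067237-134067466, intergenic, score 65.8: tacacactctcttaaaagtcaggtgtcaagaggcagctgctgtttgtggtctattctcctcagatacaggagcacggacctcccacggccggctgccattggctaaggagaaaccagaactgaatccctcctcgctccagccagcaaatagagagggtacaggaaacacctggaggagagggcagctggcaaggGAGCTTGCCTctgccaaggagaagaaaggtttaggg
Cdkn1a, chr17:29058019-29058110, exon of Trp53cor1, score 53.1: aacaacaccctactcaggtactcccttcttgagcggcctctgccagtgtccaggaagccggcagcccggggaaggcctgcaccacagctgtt

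The Gdf15 peak is 163 bp wide and its centre lies 2.90 kb downstream of the nearest annotated start, just past the end of the gene. The Btg2 peak is 230 bp wide and lies past the end of its gene, 11.8 kb downstream of the start. It holds 1 p53 half-site, which 5.5% of the 2489 peaks of 80 to 320 bp in the 25 µM list also hold. Neither it nor the other 2 peaks hold TGANTCA, the AP-1 motif, which occurs in 15.5% of those peaks. The peak nearest to Cdkn1a is 92 bp wide and lies 32.9 kb upstream of the start, in an exon of Trp53cor1, the long noncoding RNA also called lincRNA-p21 and a p53 target itself. Trp53cor1 had 31 and 37 counts in treated and 20 and 21 counts in control libraries, or 0.916 and 1.28 against 0.575 and 0.537 CPM. Both treated libraries lay above both controls, with a log2 fold change of 0.97 and a 95% interval from 0.10 to 1.84 (unadjusted p = 0.0359, adjusted p = 0.141, edgeR).

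For the other 7 genes the nearest peak of the 25 µM list lay farther off. Bbc3 had one at 80.2 kb, Phlda3 at 86.4 kb, Bax at 175 kb and Trp53 at 185 kb from the nearest start. Trp53inp1 had one at 551 kb, Mdm2 at 929.8 kb and Ccng1 at 2455 kb. The median distance was 130.5 kb for the 10 genes and 219.9 kb for all annotated genes. In the 0.5 µM list the nearest peak was that at Gdf15, 125 kb away, and the median was 1319 kb, beside 865 kb for all annotated genes. None of the p53 matches shown above lies in a peak of either list, since the Gdf15 peak and the Gdf15 match are apart and the others have no peak as near.

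**Figure D5:**
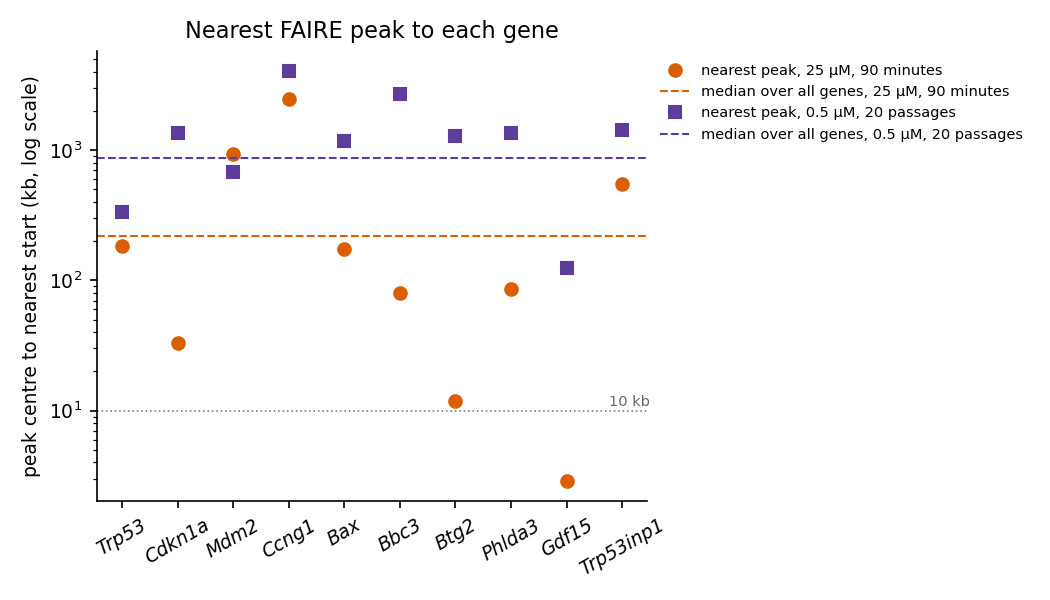
Distance in kb, on a log axis, from the nearest annotated start of each gene to the centre of the nearest FAIRE peak in the 25 µM list (circles) and the 0.5 µM list (squares), with dashed lines at the medians over all annotated genes. Gdf15 at 2.90 kb and Btg2 at 11.8 kb are the nearest in the 25 µM list, and no gene has a peak of the 0.5 µM list within 125 kb.

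Of the 52 other targets, 5 had a peak of the 25 µM list in the same window (Ephx1, Apaf1, E2f7, Gls2 and Siva1, named after their peaks were seen) and 1 had a peak of the 0.5 µM list, Apaf1. These counts are close to the 9.24% and 2.97% of all annotated genes. Apaf1, the core of the apoptosome, was at 60.3 CPM in treated replicate 1, 75.1 CPM in treated replicate 2, and 63.0 and 59.9 CPM in the controls. A p53 site within 2.5 kb of the first start was found at 13 of the 52, beside 4.98% of all annotated genes.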

How the data were processed

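The deposited RNA-seq values are unnormalised read counts per Entrez gene. The authors aligned the reads with TopHat to the mm10 genome before counting. The submitters' processing notes also name bcl2fastq, CASAVA 1.8, BWA and DESeq. The counting tool and use of strand are not given in the sources used here. Peak lists carry a score that the authors obtained with MACS, 1 treated against 1 control library, equal to 10 times the negative log10 of the p-value. Peaks open in control cells and RNA-seq at 0.5 µM were not analysed here.

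Genes passing edgeR's filterByExpr (13619 of 23403) were scaled by TMM (factors 1.03 and 0.897 in treated, 1.04 and 1.04 in control libraries) and compared by the two-sided quasi-likelihood test of edgeR without a blocking term, with Benjamini-Hochberg adjustment over all tested genes and a threshold of 0.05. The biological coefficient of variation was 0.193. When the steps were tested on simulated data, 124 of 200 changed genes (62.0%) were recovered and 10 unchanged genes were called. Simulated treated and control libraries had the same spread for each gene, unlike the real ones, so the share recovered need not hold for the genes described here. Of the 23403 IDs, 23281 matched a RefSeq GRCm38.p6 gene; peak and site positions were read from that build.

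All 10 members are named. Of each pathway list, genes that passed and the 3 with the largest absolute log2 fold change at a mean of at least 1 CPM are named, then the 5 genes most like Cdkn1a and Trp53, and peaks within 10 kb or nearest. Others carry a remark. The members and lists were chosen with earlier results of these data known. The alternatives were RLE and upper-quartile factors, library size only, no filter, DESeq2, a replicate block, each library left out, and other windows, scores and mismatches. Fits ran in R 4.3.3 with edgeR 4.0.16 and DESeq2 1.42.0 (limma 3.58.1 underlies edgeR). Sequences and summaries were made in Python 3.11.15 with pysam 0.24.0, pandas 2.3.3 and numpy 2.4.6, and plots with matplotlib 3.10.9.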

Additional observations from a re-analysis of the deposited data

How the results depend on the processing

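With all 4 libraries, 1 of 60 log2 fold changes of the 10 genes under other settings changed sign and 7 passed the threshold. With 1 library left out, 4 of 40 changed sign. The count of genes that differed was 631 (243 higher, 388 lower), 2015 with DESeq2 and 287 to 10995 with 1 library left out. The counts of each list below also moved with 1 library left out. Of the 10 genes, 0 passed, and 3 with DESeq2, beside 4.63% and 14.2% of all tested genes. Of the other targets, 1 passed, 2 without a filter, 10 with DESeq2 and 2 to 48 with 1 library left out. Of the regulators, 0 passed, 3 with DESeq2 and 0 to 16 with 1 library left out. Their median log2 fold change of 0.014 was 0.0327 with RLE factors, −0.11 with library size only, 0.0366 with upper-quartile factors, −0.0167 without a filter, and −0.14 to 0.0481 with 1 library left out. With library size only, the median of all tested genes moved to −0.11. The cause of these shifts was not tested.

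With the replicate number as a replicate block, 2969 genes (21.8% of all tested genes), 4 of the 10 genes, 15 of 51 other targets and 4 of 17 regulators passed. Gdf15 went to −0.089. The labels share a number, and the library codes within each number are consecutive, but neither names a culture, batch or day. Differences within the treated and the control pair correlated at 0.0909 across genes, so the numbers are not taken to pair the samples.

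The log2 fold change of Gdf15 ran from −1.76 to 1.58 with 1 library left out, that of Mdm2 from −0.49 to 1.17, that of Ccng1 from −0.15 to 0.40 and that of Bax from −0.39 to 0.20. Genes with a 25 µM peak numbered 2 (9.24% of all annotated genes), 3 with windows of 50 kb (20.9%), 1 with windows of 1 kb (6.41%), with a peak centre within 10 kb of a start (4.57%) or with a score of at least 60 (3.53%), and 0 with a score of at least 100 (0.103%). With at most 3 mismatches, 7 genes held a p53 site, as did 21.7% of all annotated genes.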

Other observations

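Of the 7 peaks within 10 kb of the other p53 targets, 1 lay near a promoter. This was the 0.5 µM peak at Apaf1, chr10:91082626-91083447 in mm10, 822 bp wide with a score of 78.6. Its centre lies −293.5 bp from the nearest Apaf1 start, on the upstream side, in an exon of the neighbouring gene Ikbip. The 25 µM peak at Apaf1, chr10:91066725-91066826, lies in an intron of the gene. The other 25 µM peaks lie in introns of Gls2 and Ephx1 or between genes near E2f7, Siva1 and Ephx1. They were looked up after the lists were seen.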
